A study of Homo sapiens with 10 samples.

Results

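A group of 9 genes of the p53 pathway and the GADD45 family were followed in RPE-1 cells, an immortalized line of human retinal pigment epithelium, after 4 h with sulforaphane (SFN), an isothiocyanate from cruciferous vegetables. They were MDM2, MDM4, TP53INP1, GADD45A, GADD45B, PLK2, PLK3, FAS and TNFRSF10B, taken by symbol from a table of 28380 genes, and each had 1 row. One group of 5 replicates received 25 µM SFN in complete medium and the other 5 received the vehicle DMSO, and both groups share the telomerase that immortalized the line. The methods describe 3′ end libraries (Lexogen QuantSeq), while the sample labels mention only Illumina preparation. The methods give a cell number per replicate and say of the study's experiments in general that replicates were independent, but do not say how the RNA replicates were grown apart, so p-values measure the spread between these libraries, which may be partly technical.

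The protein p53 is a transcription factor that stress stabilizes, and its targets halt the cell cycle, repair DNA or start cell death. MDM2 and MDM4 hold p53 in check, and MDM2 is itself a p53 target, which closes a feedback loop. GADD45 proteins bind cell cycle and MAP kinase regulators, PLK2 and PLK3 are stress-responsive polo-like kinases, and FAS and TNFRSF10B (DR5) are death receptors at the cell surface. Several of these genes answer other stress pathways as well, and GADD45A, PMAIP1 and TNFRSF10B are known targets of the integrated stress response, which acts through ATF4 and CHOP.

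Total counts ranged from 15689294 to 20666692 in DMSO and from 12375860 to 17308706 in SFN. All 9 genes passed the low-count filter, which kept 13378 genes, and their counts lay between 81 (PLK3) and 9871 (PLK2) in a library. Levels are given as CPM, counts relative to library size after TMM scaling, groups were compared by edgeR's quasi-likelihood test, and a gene is called higher or lower where its Benjamini-Hochberg adjusted p over all tested genes was under 0.05. DMSO replicate 1 stood apart from its group, with a mean Spearman correlation across genes of 0.935 with the other DMSO libraries against 0.979 to 0.982 for the rest. Values without it are therefore given for the 9 genes and for some genes of the lists. Of 12 pigment epithelium markers 11 were in the table and 8 were tested. Of these, 0 were called higher and 3 lower in SFN (37.5% lower, against 13.9% of all tested genes). A positive log2 fold change was found for 4 of the 8. Those called lower were MITF (log2 fold change -1.12, from 50.8 to 23.4 CPM), OTX2 (-0.64) and EZR (-0.31). In DMSO, RPE65 had 0 counts in every library, RLBP1 at most 3 and TYRP1 at most 2, and the epithelial keratin KRT8 stood at 383 CPM. BEST1 stood at 18.8 CPM in DMSO and 42.4 CPM in SFN, with overlapping groups (log2 fold change 1.17, edgeR adjusted p = 0.16). Of 5 immune markers 3 were in the table, and their summed level was at most 0.137 CPM in DMSO between 0.494 and 1.43 CPM in SFN, with CD14 at 0 to 2 counts in DMSO and 4 to 18 in SFN and ITGAM at 0 in every DMSO library. Their part in the results was not tested.

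To show what sequence lies near these genes' starts, the promoter windows that RefSeq gives (GRCh38.p14, 250 bases before to 50 bases after a start site) were searched on both strands for 8 motifs. Of the 9 genes 6 had a window in that table, with 11 windows in all. The stretches below are shown because they carry the p53 decamer (the repeated unit of the p53 consensus), or a stress motif in genes that are compared in pairs. Capitals mark the match, and each stretch lies in an intron or outside the gene.
PLK2, p53 decamer, chr5:58460189-58460238, minus strand: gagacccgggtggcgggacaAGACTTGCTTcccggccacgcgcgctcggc
FAS, p53 decamer, chr10:88991289-88991338, plus strand: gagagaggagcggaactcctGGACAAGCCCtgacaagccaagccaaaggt
MDM2, AP-1 (TGANTCA), chr12:68808879-68808925, plus strand: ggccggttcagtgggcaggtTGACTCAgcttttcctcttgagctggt
PLK3, C/EBP-ATF composite (TGATGNAA), chr1:44800224-44800271, plus strand: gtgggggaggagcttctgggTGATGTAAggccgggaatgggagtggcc

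The PLK2 match began at position -132 relative to a RefSeq start site, and the FAS match, at -122 from another, lay in an intron of the canonical transcript. Of 35116 windows of 300 bases, 6.63% held a p53 decamer, 7.71% the AP-1 letters and 3.62% the C/EBP-ATF letters. The MDM2 match lay in an intron of the canonical transcript, before its internal start sites, and overlapped the core of the antioxidant response element (TGACNNNGC, in 13.3% of windows). FAS windows also held AP-1 letters and the antioxidant core, and the GADD45B window held a TATA box (TATAAA, in 11.5% of windows). No window of these genes held the CRE (TGACGTCA), the heat shock element or the CArG box, and the MDM4 window matched none of the 8 motifs. A match describes letters only and does not by itself show binding, and elements that depart from these letters are missed.

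Across the 9 genes, 1 was called higher in SFN (GADD45A) and 1 lower (PLK2), that is 2 of 9, or 22.2%, where 23.0% of all tested genes were called. By direction, 1214 of all tested genes (9.07%) were called higher and 1862 (13.9%) lower, and scaling by library size only gave 819 and 2163. A log2 change past 1 as well was met by 2.94% of tested genes upward, with 0 of the 9 genes, and by 5.76% downward, with PLK2. PLK2 was the single member whose groups did not overlap, with every SFN library below every DMSO library, which held for 11.1% of tested genes. The reverse held for 8.78% and for 0 of the 9 genes, so that groups without overlap were found for 1 of 9 genes and 19.9% of tested genes. The median log2 fold change was 0.030 over the 9 genes and -0.028 over all tested genes. The share called among the 9 genes was thus near the background. Without DMSO replicate 1, 2 of the 9 genes were called higher and 1 lower, where 3058 of all tested genes were called higher and 3193 lower, together 46.1%. In bulk libraries, fewer cells with a transcript and less transcript per cell cannot be told apart.

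**Figure D1:**
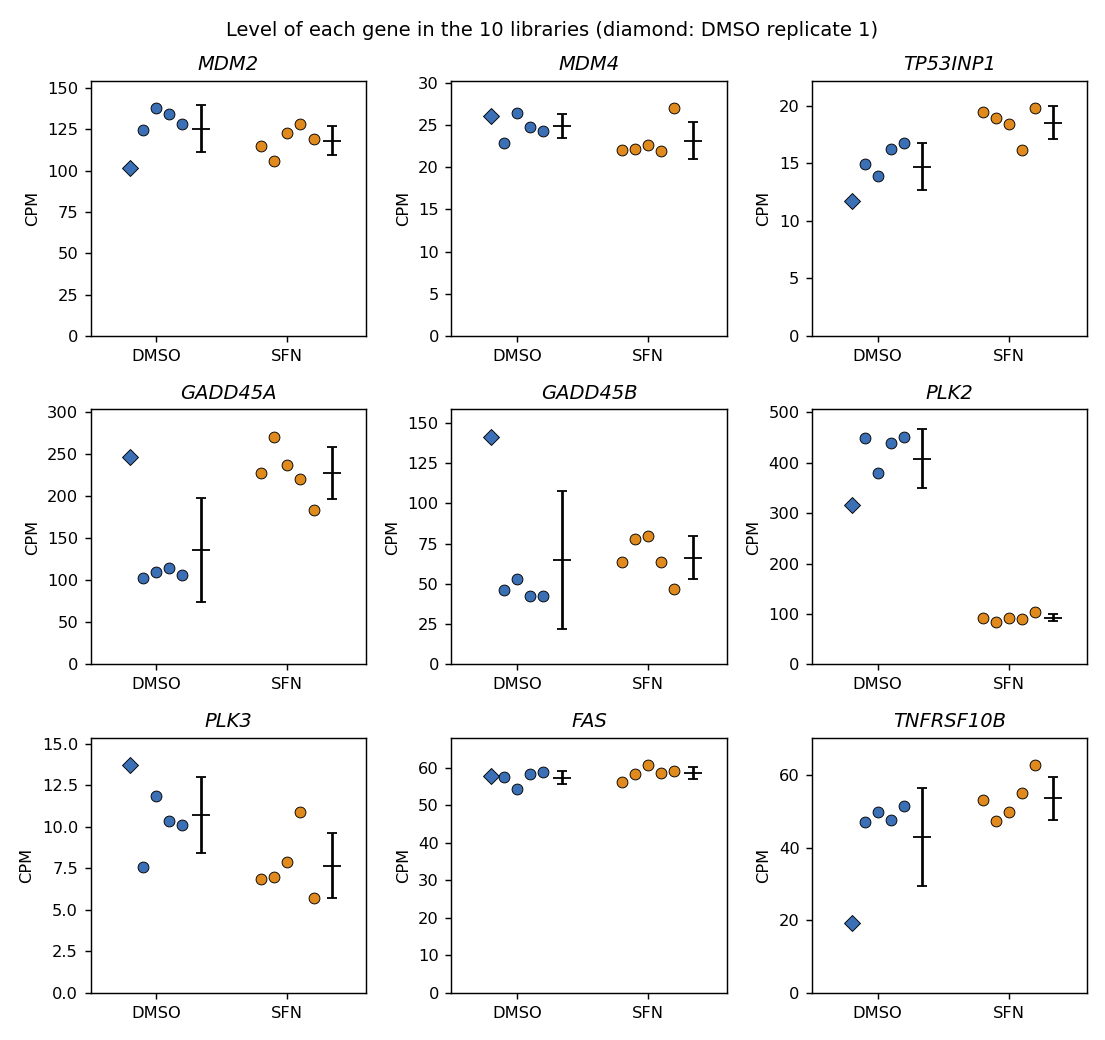
Level of each of the 9 genes in CPM (linear axis from 0) in the 5 DMSO and 5 SFN libraries; points are libraries, the diamond is DMSO replicate 1, and the bar beside each group is the mean ± SD. PLK2 lies between 84.5 and 103 CPM in SFN and between 317 and 451 CPM in DMSO, and DMSO replicate 1 stands far from its group for GADD45A, GADD45B and TNFRSF10B.

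Of the polo-like kinases, PLK2 fell and PLK3 was not called. PLK2 lies on chromosome 5 of GRCh38 from 58453982 to 58460139 on the minus strand, with 14 exons in its canonical transcript, and encodes a kinase of centriole duplication and of the response to stress. Its level was 317, 450, 380, 439 and 451 CPM in DMSO replicates 1 to 5 and 93.0, 84.5, 93.0, 89.1 and 103 CPM in the SFN replicates. The SFN libraries were close together, and all of them lay far below the lowest DMSO library. PLK2 fell from 407 ± 58.5 to 92.5 ± 6.84 CPM (SD, n = 5 each), a 4.40-fold decrease (log2 fold change -2.14 ± 0.13 SE, edgeR adjusted p = 6.9e-07). All 18 alternatives called it, with a log2 fold change between -2.25 and -2.10 (-2.22 without DMSO replicate 1).

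PLK3, a related kinase that p53 induces after DNA damage, lies on chromosome 1 from 44800377 to 44805990. It had 13.7, 7.56, 11.9, 10.4 and 10.1 CPM in DMSO and 6.85, 6.99, 7.89, 10.9 and 5.72 CPM in SFN. The groups overlapped, since SFN replicate 4 lay above 3 of the DMSO libraries and DMSO replicate 2 lay below SFN replicates 3 and 4. The log2 fold change was -0.48 (SE 0.20, edgeR adjusted p = 0.11), without DMSO replicate 1 it was -0.38, and without SFN replicate 4 it was -0.64 and called (edgeR adjusted p = 0.038).

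Whether both kinases responded alike was tested on their ratio within each library, which does not depend on scaling. The log2 ratio of PLK3 to PLK2 counts was -5.26 ± 0.52 in DMSO and -3.62 ± 0.41 in SFN (SD, n = 5 each), a difference of 1.64 with a 95% interval from 0.96 to 2.32. The ranges did not overlap, and the two-sided exact permutation p was 0.0079, the smallest that this design allows (adjusted p = 0.016 over the 4 pairs compared). PLK2 thus fell relative to PLK3.

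Among the genes with a mean of at least 5 CPM, the 5 whose log2 CPM followed PLK2 most closely over the 10 libraries were CCNE2, MAB21L1, FAM111B, RTL10 and HMGA2, with a Pearson r from 0.993 to 0.997 among 10038 genes searched. They had log2 fold changes between -2.48 and -1.27. These 10 points fall into the treatment groups, and no p is given.

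The GADD45 genes are small stress-induced inhibitors of cell cycle progression, and GADD45A rose while GADD45B could not be called with all libraries. GADD45A lies on chromosome 1 from 67685201 to 67688334 and has 4 exons. It stood at 246, 103, 110, 115 and 106 CPM in DMSO replicates 1 to 5 and at 227, 270, 236, 220 and 184 CPM in the SFN replicates. DMSO replicate 1 lay above 4 of the 5 SFN libraries, while the other DMSO libraries lay below all of them. The level rose from 136 ± 61.7 to 228 ± 31.1 CPM (SD, n = 5 each), a 1.67-fold increase (log2 fold change 0.74 ± 0.24 SE, edgeR adjusted p = 0.043). Without DMSO replicate 1 the DMSO mean was 108 ± 5.16 CPM (SD, n = 4) and the log2 fold change was 1.06 (SE 0.10, edgeR adjusted p = 2.3e-06). Leaving out any 1 of the other DMSO libraries, or any 1 of SFN replicates 1 to 4, ended the call for GADD45A, with an adjusted p of at most 0.10. Of 18 alternatives, 10 kept GADD45A past the threshold.

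GADD45B, on chromosome 19 from 2476122 to 2478259, is also known as an early response gene to cytokines and NF-κB. It stood at 141, 46.3, 52.9, 42.5 and 42.5 CPM in DMSO and at 63.9, 78.2, 79.6, 63.4 and 47.1 CPM in SFN. DMSO replicate 1 was the highest of all 10 libraries, and SFN replicate 5 was no higher than DMSO replicate 3. The log2 fold change was 0.030 (SE 0.33, edgeR adjusted p = 0.96), with an approximate 95% interval from -0.73 to 0.79. Without DMSO replicate 1 it was 0.52 (SE 0.14, edgeR adjusted p = 0.0072), against a DMSO mean of 46.03 ± 4.91 CPM (SD, n = 4).

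The log2 ratio of GADD45B to GADD45A was -1.15 ± 0.24 in DMSO and -1.79 ± 0.14 in SFN (SD, n = 5 each), without overlap. The difference was -0.64 with a 95% interval from -0.93 to -0.35 (two-sided exact permutation p = 0.0079, the smallest possible, adjusted p = 0.016 over the 4 pairs). Without DMSO replicate 1 the difference was -0.55, and with each library left out in turn its adjusted p stayed between 0.016 and 0.032 by the same exact test. GADD45A thus gained on GADD45B within the libraries, whichever library was left out.

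The other GADD45 and PLK genes and their partners were listed with 18 members, of which 15 were tested. Of these 1 was called higher (6.67%, against 9.07% of all tested genes) and 2 lower (13.3%, against 13.9%). MAP2K4, a kinase that activates JNK, rose (log2 fold change 0.43 ± 0.12 SE), while PLK4, the kinase that starts centriole duplication, and CDC25A, a phosphatase that activates cyclin-dependent kinases, fell by 0.42 and 0.40 on the log2 scale. Of 18 alternatives 11 called MAP2K4 and 8 called PLK4, whose groups overlapped, and without DMSO replicate 1 the log2 fold change of PLK4 was -0.52. MAP3K4, which GADD45 proteins bind and activate, had a log2 fold change of -0.46 (edgeR adjusted p = 0.22), and PLK1, the main mitotic polo-like kinase, of 0.039 (edgeR adjusted p = 0.92). Without DMSO replicate 1 the list had 3 genes called higher and 5 lower, in the fit that called 46.1% of all tested genes.

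The genes closest in pattern to GADD45A over the 10 libraries were CACYBP, PTP4A2, TERF2IP, EIF5 and YKT6, with a Pearson r from 0.987 to 0.993. Their log2 fold changes lay between 0.33 and 0.71. The 10 points fall into the treatment groups, with DMSO replicate 1 far from its group for GADD45A, and no p is given. How far that library sets these correlations was not tested.

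**Figure D2:**
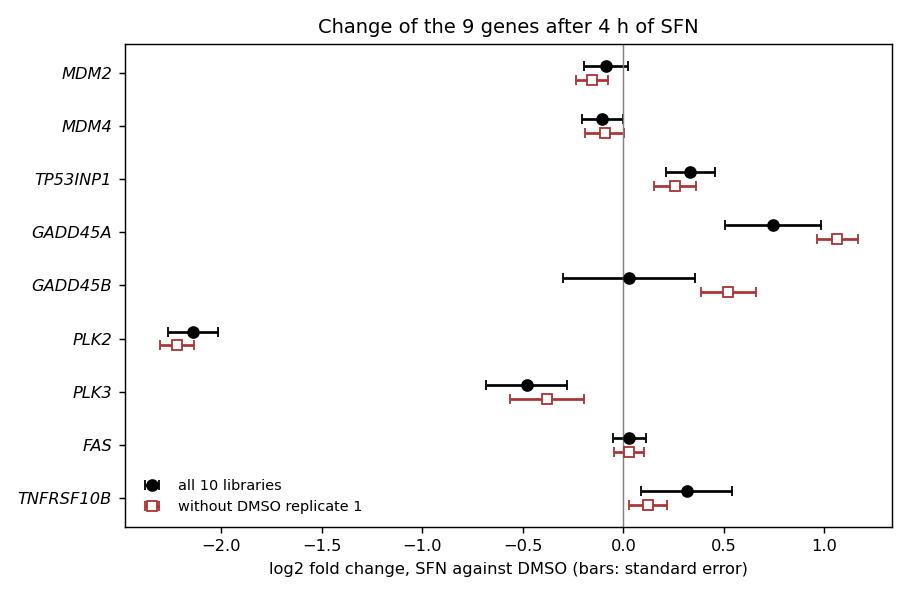
Log2 fold change of each of the 9 genes, SFN against DMSO, with all 10 libraries (filled circles) and without DMSO replicate 1 (open squares); bars are standard errors. Leaving that library out moves GADD45A from 0.74 to 1.06 and GADD45B from 0.030 to 0.52, and leaves PLK2 below -2.

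MDM2 and MDM4, the inhibitors of p53, were not called. MDM2, a ubiquitin ligase that marks p53 for degradation, lies on chromosome 12 from 68808177 to 68845544. It had 101, 125, 138, 134 and 128 CPM in DMSO and 115, 106, 123, 128 and 119 CPM in SFN, and the groups overlapped. The log2 fold change was -0.085 (SE 0.11, edgeR adjusted p = 0.635), with an approximate 95% interval from -0.33 to 0.16. It was -0.16 without DMSO replicate 1. With all libraries, a rise of MDM2 of more than 0.16 on the log2 scale thus lay outside the interval.

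MDM4, a relative of MDM2 that masks the activation domain of p53, lies on chromosome 1 from 204516379 to 204558120. It had 26.1, 22.9, 26.4, 24.8 and 24.3 CPM in DMSO and 22.1, 22.2, 22.6, 21.9 and 27.0 CPM in SFN. In SFN, 4 libraries lay below every DMSO library, and SFN replicate 5 lay above them all. The MDM4 log2 fold change was -0.10 (SE 0.10, edgeR adjusted p = 0.52), and -0.092 without DMSO replicate 1. The log2 ratio of MDM2 to MDM4 differed by 0.027 between the groups, with a 95% interval from -0.24 to 0.30 (two-sided exact permutation p = 0.87, adjusted p = 0.87 over the 4 pairs), and by -0.065 without DMSO replicate 1.

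Of 37 tested genes of the p53 core and its regulators, from a list of 39, 2 were called higher and 4 lower. This was a share of 16.2%, against 23.0% of all tested genes. CSNK1A1, the casein kinase that works with MDM4, and the transcription factor YY1 rose, with log2 fold changes of 0.61 and 0.53. DYRK2, a kinase that phosphorylates p53, fell from 41.2 ± 4.43 to 14.5 ± 2.53 CPM (log2 fold change -1.50 ± 0.14 SE, edgeR adjusted p = 1.9e-05). TRIM24, a ubiquitin ligase for p53, fell by 0.93 on the log2 scale, and DAXX fell by 0.48. PPP1R13L (iASPP) also fell by 0.48, but its groups overlapped and 5 of 18 alternatives called it. With DMSO replicate 1 left out, 5 genes of this list were called higher and 11 lower, again where 46.1% of all tested genes were called.

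TP53INP1, a stress-induced p53 cofactor that also acts in autophagy, lies on chromosome 8 from 94925972 to 94949378. It had 11.7, 14.9, 13.9, 16.3 and 16.8 CPM in DMSO and 19.4, 18.9, 18.4, 16.1 and 19.8 CPM in SFN. In SFN, 4 libraries lay above every DMSO library, and SFN replicate 4 lay among them. The TP53INP1 log2 fold change was 0.33 (SE 0.12, edgeR adjusted p = 0.072), it was 0.26 without DMSO replicate 1, and it passed the threshold in 3 of 18 alternatives.

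The death receptors FAS and TNFRSF10B were not called. FAS, the receptor for FAS ligand, lies on chromosome 10 from 88953813 to 89029605 and had the smallest SD relative to its mean among the 9 genes in both groups. It had 57.8, 57.6, 54.3, 58.4 and 58.7 CPM in DMSO and 56.3, 58.3, 60.6, 58.6 and 59.0 CPM in SFN. The FAS log2 fold change was 0.030 (SE 0.083, edgeR adjusted p = 0.84), its approximate 95% interval ran from -0.16 to 0.22, and without DMSO replicate 1 it was 0.028. STAMBPL1 overlaps FAS on the same strand and ACTA2 on the other, and counting by strand is not stated, so reads of these genes may not be fully told apart. RHOBTB2, which overlaps TNFRSF10B on the other strand, fell by 0.48 on the log2 scale. The deposited counts of STAMBPL1 fell (log2 fold change -0.43 ± 0.12 SE).

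TNFRSF10B, a receptor for the ligand TRAIL, lies on chromosome 8 from 23020133 to 23069031. It had 19.2, 47.0, 49.9, 47.7 and 51.5 CPM in DMSO and 53.1, 47.3, 49.7, 55.1 and 62.7 CPM in SFN. DMSO replicate 1 lay far below the other 9 libraries, which overlapped. The log2 fold change was 0.32 (SE 0.23, edgeR adjusted p = 0.365), and without DMSO replicate 1 it was 0.12 (SE 0.093, edgeR adjusted p = 0.29). The log2 ratio of TNFRSF10B to FAS differed by 0.36 (95% interval -0.29 to 1.02, two-sided exact permutation p = 0.17, adjusted p = 0.22 over the 4 pairs) and by 0.089 without DMSO replicate 1.

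**Figure D3:**
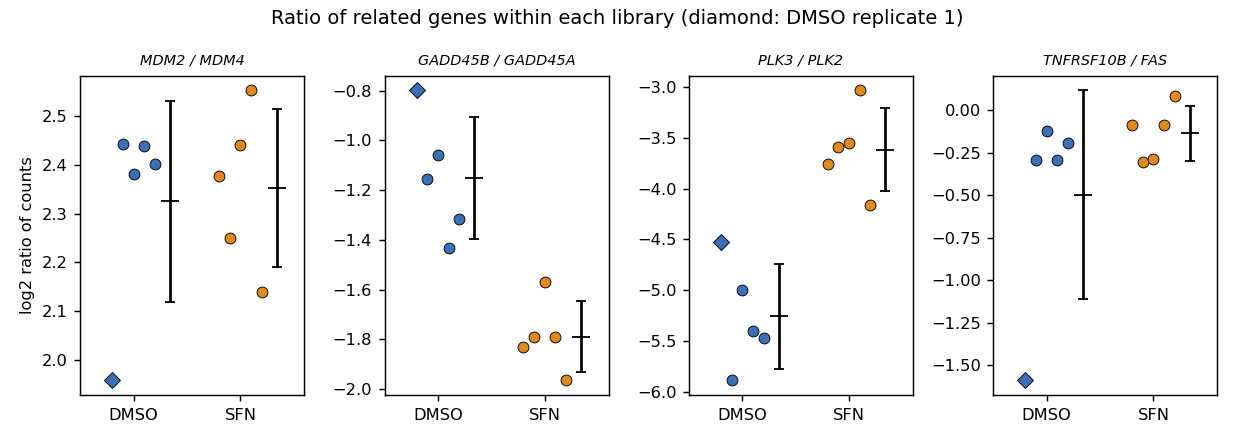
Log2 ratio of the counts of 2 related genes within each library for the 4 pairs compared; points are libraries, the diamond is DMSO replicate 1, bars are the mean ± SD (n = 5), and the vertical axes differ. The groups are apart for GADD45B to GADD45A (difference -0.64) and PLK3 to PLK2 (difference 1.64) and overlap for the other pairs.

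In DMSO replicate 1 the 9 genes did not move in one direction. Relative to the mean log2 CPM of its group, GADD45A was 0.95 higher and GADD45B 1.30 higher, and they have the shortest canonical transcripts of the 9 genes, 1352 and 1371 bases. TNFRSF10B, with 3998 bases, was lower (-1.08), as were PLK2 (-0.35, 2786 bases), TP53INP1 (-0.32, 5605 bases) and MDM2 (-0.30, 7490 bases). PLK3 (2340 bases) was 0.38 higher, FAS (3696 bases) 0.012 higher, and MDM4, with the longest transcript (10050 bases), 0.070 higher. The part of transcript length in these deviations was not tested.

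The other genes of death receptor signaling moved both ways. Of 29 listed, 26 were in the table and 23 were tested, with 4 called higher and 4 lower. This was a share of 34.8%, against 23.0% of all tested genes. TNFRSF10D, a TRAIL receptor that lacks a working death domain, rose from 36.4 ± 9.02 to 102 ± 3.09 CPM (SD, n = 5 each; log2 fold change 1.48 ± 0.17 SE, edgeR adjusted p = 1.0e-04). TNFRSF1A, the main TNF receptor, and BIRC2, an inhibitor of apoptosis, rose with log2 fold changes of 0.80 and 0.45. The values were 1.33 for TNFRSF10D and 0.66 for TNFRSF1A without DMSO replicate 1. The adaptor FADD, which joins FAS and TRAIL receptors to caspase 8, fell from 65.4 ± 7.91 to 35.4 ± 2.33 CPM (log2 fold change -0.89 ± 0.11 SE, edgeR adjusted p = 1.5e-04). CASP8 itself fell from 9.21 ± 1.28 to 3.46 ± 0.70 CPM (log2 fold change -1.41 ± 0.17 SE, edgeR adjusted p = 1.2e-04).

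BIRC3, an inhibitor of apoptosis induced by NF-κB, fell 9.42-fold, from 3.81 ± 1.16 to 0.403 ± 0.132 CPM, and TNFRSF25 fell by 0.91 on the log2 scale. The SFN libraries held only 4 to 7 counts of BIRC3, so the size of its fall rests on few reads. Of the 23 tested genes, the groups did not overlap for 8, against 19.9% of all tested genes. CFLAR, which competes with CASP8, had a log2 fold change of -0.056 (edgeR adjusted p = 0.81), and the TRAIL gene TNFSF10 had at most 2 counts in a DMSO library and 0 in every SFN library. With DMSO replicate 1 left out, 7 genes of the list were called higher and 6 lower, against 46.1% of all tested genes called.

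Of 54 other p53 target genes, 51 were tested, and 7 were called higher and 11 lower, that is 35.3% called against 23.0% of all tested genes. By direction these were 13.7% higher and 21.6% lower, against 9.07% and 13.9% of all tested genes. Over the list the log2 fold changes had a median of 0.017, against -0.028 over all tested genes. The targets did not move together: 27 of 51 had a positive log2 fold change.

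The largest increases among the targets were those of SESN2, a sestrin that restrains mTORC1 (log2 fold change 3.54 ± 0.17 SE), and PMAIP1 (NOXA), which primes mitochondria for apoptosis. PMAIP1 rose from 43.9 ± 5.50 to 197 ± 19.5 CPM (SD, n = 5 each; log2 fold change 2.16 ± 0.12 SE, edgeR adjusted p = 4.6e-07). Both also belong to the 4 tested targets that the integrated stress response is known to induce. Of these, 2 were called higher and 0 lower, where 9.07% of all tested genes were called higher and 13.9% lower. BBC3 had a log2 fold change of 0.73 (edgeR adjusted p = 0.10), while that of TNFRSF10A was negative, -0.48 (edgeR adjusted p = 0.081). The part of the integrated stress response in these changes was not tested. TNFRSF10D, SERTAD1, ANKRA2, CDKN1A and DUSP14 were also called higher, with overlapping groups for SERTAD1, ANKRA2 and CDKN1A. The log2 fold change of SERTAD1 was 1.07, and 1.31 without DMSO replicate 1, and 11 of 18 alternatives called ANKRA2. CDKN1A, which encodes the cell cycle inhibitor p21 and is the best known p53 target, rose from 40.01 ± 4.88 to 54.9 ± 7.29 CPM (log2 fold change 0.46 ± 0.13 SE, edgeR adjusted p = 0.021), a call that 12 of 18 alternatives gave.

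Of the 47 other tested targets, 5 were called higher and 11 lower, where 9.07% of all tested genes were called higher and 13.9% lower. BTG2, an antiproliferative gene, fell 7.62-fold, from 3.03 ± 0.96 to 0.387 ± 0.214 CPM (log2 fold change -2.93 ± 0.39 SE, edgeR adjusted p = 2.3e-04). The size of this fall rests on few reads, with 2 to 12 counts in the SFN libraries. PANK1, an enzyme of coenzyme A synthesis, fell 3.60-fold. TNFAIP8, SESN1, the translesion polymerase POLH and TOB1 fell by 0.75, 0.75, 0.68 and 0.65 on the log2 scale, and the groups overlapped for none of these 6 genes. Over all 51 tested targets, every SFN library lay below every DMSO library for 12 and above for 5. The shares over all tested genes were 11.1% below and 8.78% above. The TNFAIP8 value was -0.51 without DMSO replicate 1. The apoptosis gene BAX had a log2 fold change of 0.23 (edgeR adjusted p = 0.48), CCNG1 of -0.14 (edgeR adjusted p = 0.63) and the phosphatase gene PPM1D of 0.16 (edgeR adjusted p = 0.50). Leaving out DMSO replicate 1, the list had 12 genes called higher and 17 lower, in the fit that called 46.1% of all tested genes.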

How the data were processed

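The authors sequenced RNA of RPE-1 cells exposed to SFN or vehicle (4 h, 5 replicates each) and, per the methods, aligned Lexogen QuantSeq reads with the Bluebee pipeline. The submitters' processing notes list FastQC, STAR, featureCounts and edgeR and the build GRCh38, without roles; the annotation release and the use of strand are not given in the sources used here. What the authors deposited are unnormalized counts, 1 row per Ensembl gene. Groups were taken from the sample titles. The 9 genes and all lists were chosen with earlier results of these data known.

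Counts were filtered with filterByExpr, scaled by TMM and tested with glmQLFit and glmQLFTest (edgeR 4.0.16, R 4.3.3). The authors' model (voomWithDreamWeights on quantile normalized values with repeated measures) was not run; limma-voom (limma 3.58.1) after quantile normalization came closest among the alternatives, which included DESeq2 1.42.0. Standard errors (SE) were derived from the log2 fold change and the F statistic, and approximate 95% intervals use 8 degrees of freedom. Related genes were compared by an exact permutation test of the within-library log2 ratio (counts plus 0.5). In each pathway list the 6 largest called changes per direction were named by rule; genes that were not called, STAMBPL1, RHOBTB2, the cell type markers and DUSP14 were named after their values were seen. Some listed genes are counted but not reported here by name. Positions are those of GENCODE 44, and promoters are those of RefSeq. No 2 replicates differed by less than the sampling noise (chi-square per degree of freedom from 3.50 to 243). In simulated counts for SFN against DMSO over 13259 genes, edgeR recovered 96.9% of genes changed 4-fold and 66.0% of those changed 2-fold. Of its calls 5.39% were false, and of those of DESeq2 15.7%. Only 97 tested genes were changed by each amount and no library was made to stand apart, so these rates may not hold for the real libraries. At this depth 3 counts were 0.137 to 0.259 CPM. Alternatives covered the scaling, test, filter, sample weights, a replicate block and leaving out each library.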

Additional observations from a re-analysis of the deposited data

Results flagged for a closer look

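Among 72 groups of 5 libraries (the 9 genes and the genes named of the lists, in DMSO and in SFN), 11 had 1 library whose gap to its nearest neighbour, divided by the range of the group, was above 0.71. For independent, normally distributed values chance gives about 1 in 20, or 3.6. The 72 groups come from the same 10 libraries and are not independent, so 1 unusual library can give many flags. In 9 of the 11 the library was DMSO replicate 1. That library was the highest of its group for GADD45A (0.917), with 246 CPM against 115 CPM in the nearest library, and for GADD45B (0.895), with 141 against 52.9 CPM. It was the lowest for TNFRSF10B (0.86), with 19.2 against 47.0 CPM.

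Among the genes of the lists, DMSO replicate 1 was the highest of its group for PMAIP1 (0.777), SERTAD1 (0.735) and TNFAIP8 (0.854). It was the lowest for TNFRSF10D (0.855), TNFRSF1A (0.861) and PLK4 (0.762). The 2 TRAIL receptors TNFRSF10B and TNFRSF10D were thus both low in this library, TNFRSF10D with 20.4 CPM against 38.9 CPM in the nearest library.

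SFN replicate 5 was the highest SFN library for MDM4 (0.848), with 27.0 against 22.6 CPM. DMSO replicate 3 was the lowest DMSO library for FAS (0.736), with 54.3 against 57.6 CPM.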

How the results depend on the processing

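PLK2 was called lower under every one of the 18 alternatives run, and MDM2, MDM4, FAS and TNFRSF10B were called under none. Beyond the 9 genes' call of 1 higher and 1 lower, 2 were called higher with DESeq2, 2 with limma-voom on quantile normalized values and 3 with sample quality weights. These fits called 28.3%, 21.5% and 59.2% of all tested genes, against 23.0% in the main fit. With a library left out, 0 to 2 of the 9 genes were called higher and 1 to 2 lower. Those fits called 17.5% to 46.1% of all tested genes. The cause of these shifts was not tested. The FAS log2 fold change was -0.055 with library size only, and that of GADD45B ranged from -0.092 to 0.52 with a library left out.

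With sample quality weights, 3874 of all genes were called higher and 4041 lower, 15 and 18 p53 targets, 8 and 14 regulators, 9 death receptor genes higher, and 3 and 5 GADD45 and PLK genes. With DESeq2, 4 of 37 tested regulators were called higher, where 1635 of 13378 tested genes were. The GADD45 and PLK list had 0 called higher with library size only, where 819 of 13378 genes were. Without a low-count filter it had 0 higher and 1 lower, where 1135 and 1717 of 28380 genes were called. With a library left out, the counts ranged from 906 to 3058 higher and 1470 to 3193 lower over all genes, and from 5 to 12 and 8 to 17 for p53 targets. They ranged from 2 to 5 and 3 to 11 for regulators, 4 to 7 and 4 to 6 for death receptor genes, and 0 to 3 and 1 to 5 for the GADD45 and PLK list, each highest without DMSO replicate 1. The log2 ratio difference ranged from -0.065 to 0.080 for MDM2 to MDM4.

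Same-numbered DMSO and SFN libraries correlated from -0.27 to 0.48 in their deviations, over 0.1 in 1 of 5 pairs, so the numbers were not taken to pair the samples. With the replicate block, 911 genes were called higher and 1530 lower, the GADD45 and PLK list had 0 higher and 1 lower, and the ratio differences, -0.64 for GADD45B to GADD45A and 1.64 for PLK3 to PLK2, had an adjusted p of 0.125 by an exact sign-flip permutation test whose smallest unadjusted p is 0.0625.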
